A study of Homo sapiens with 6 samples.

Results

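RNA of 37 consensus sequences of human endogenous retroviruses (HERVs), out of 1047 sequences counted, was followed in H1 cells (passages 40 to 60), an established line of human embryonic stem cells. The members were chosen by name: every sequence named HERV, PRIMA or HARLEQUIN, without those named HERVK, HERVL or HERV9 and without HERVH itself. Read by its letters, this choice also takes in HERV-K14I and HERV-K14CI, which bear names of the HERVK group written with a hyphen. By name, 33 of the 37 are internal sequences, of which 4 (HERV16, HERV18, HERV52I and HERV57I) belong to the ERVL-like class III. The other 4 members are long terminal repeats (LTRs) named after a HERV: HARLEQUINLTR, PRIMA4_LTR, HERV1_LTR and HERV4_LTR. All 6 libraries came from cells with a doxycycline (dox) inducible hairpin RNA against EXOSC3, a subunit of the RNA exosome. The PB line, with an empty vector, gave 1 library without and 1 with dox. The EXOSC3r cells, with a transgene resistant to the hairpin, gave 2 libraries without dox and 2 with dox, from clones 1 and 2. The level of EXOSC3 was not analysed here, and neither its loss nor its rescue was checked. Since each line carries the hairpin, an effect of dox on its own and an effect of the hairpin cannot be told apart. The PB line has 1 library per arm, so each PB value has no replicate of its own.

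A HERV is the remnant of a retrovirus that entered the germ line. A complete copy has gag, pol and env genes, which make the internal sequence, between 2 LTRs that carry the promoter and the polyadenylation signal. In many copies the internal part has been lost and a solitary LTR remains. Members of the HERVH group are known to be transcribed in human pluripotent cells. The RNA exosome is a complex of nucleases that shortens RNA from the 3' end and clears unstable nuclear transcripts.

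Values per library are CPM, estimated counts per 1000000 scaled by the TMM method, unless TPM, which also divides by length, is named. A consensus stands for many genomic copies, so it has no position, and reads that fit several relatives were shared out by the estimation. A read from a copy inside a gene's transcript also counts for the HERV. Fewer cells with an RNA and less of it per cell cannot be told apart in such bulk libraries. The total of assigned counts was 3745260 to 5260200 per library, TMM factors were 0.744 to 1.21, and Alu took 33.0% to 52.5% of assigned counts. HERVH and the LTR7 names that flank it are the sequences here that bear on the cell type. HERVH stood at 28393 CPM in PB cells and 35679 with dox, at 27573 and 20520 in clone 1, and at 28170 and 21047 in clone 2. The summed level of the 4 LTR7 names was 16001 and 14188 CPM in PB cells, 20145 and 15312 in clone 1, and 16394 and 12016 in clone 2.

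The members held 4.05% of assigned counts in PB cells (95% exact binomial interval 4.03% to 4.07%, counting error only) and 4.07% with dox. In EXOSC3r clone 1 their share was 3.23% without and 2.69% with dox. In clone 2 it was 3.62% without and 3.86% with dox. The shares moved down with dox in 1 line and up in 2, and the libraries also differed in the share of Alu, whose part in this was not tested. After TMM scaling the summed level of the members lay between 33582 and 37013 CPM in the 6 libraries.

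Of the 37 members, 33 reached 10 counts in at least 1 library and were tested. HERV16 and PRIMAX_I stayed under 10 counts in every library. HERV4_LTR and HERVR had a count of 0 in all 6, which allows up to 3 counts, or 0.542 to 0.767 CPM depending on the library. Levels were steep: 3 internal sequences of class I, HERV39, PRIMA4_I and HERV4_I, together held 66.7% to 68.9% of the members' counts in each library. HERV39 alone held 41.2% to 44.1%. At the other end, 12 of the 33 tested members averaged under 100 CPM.

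HERV39 stood at 14621 CPM in PB cells and 14020 with dox, at 15590 and 15931 in clone 1, and at 14957 and 15283 in clone 2. In TMM-scaled CPM, both PB libraries were therefore below all 4 EXOSC3r libraries, with no common direction under dox. In TPM the order of lines was the reverse. PB cells had 548 and 617 TPM, clone 1 had 389 and 300, and clone 2 had 469 and 523. PRIMA4_I, the internal part of a class I element flanked by PRIMA4_LTR, was at 5800 and 5707 CPM in PB cells, 6593 and 6714 in clone 1, and 6212 and 6097 in clone 2, without and with dox. It showed the same order of lines as HERV39 in CPM, and again the reverse in TPM. Its TPM was 239 and 276 in PB cells, 181 and 139 in clone 1, and 214 and 229 in clone 2. HERV4_I was at 3520 and 2686 CPM in PB cells, 3053 and 2267 in clone 1, and 3061 and 2604 in clone 2. In CPM, all 3 dox libraries of HERV4_I lay below all 3 libraries without dox. In TPM they overlapped, as PB cells with dox (165) were above clone 1 (107) and clone 2 (134) without dox.

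**Figure D1:**
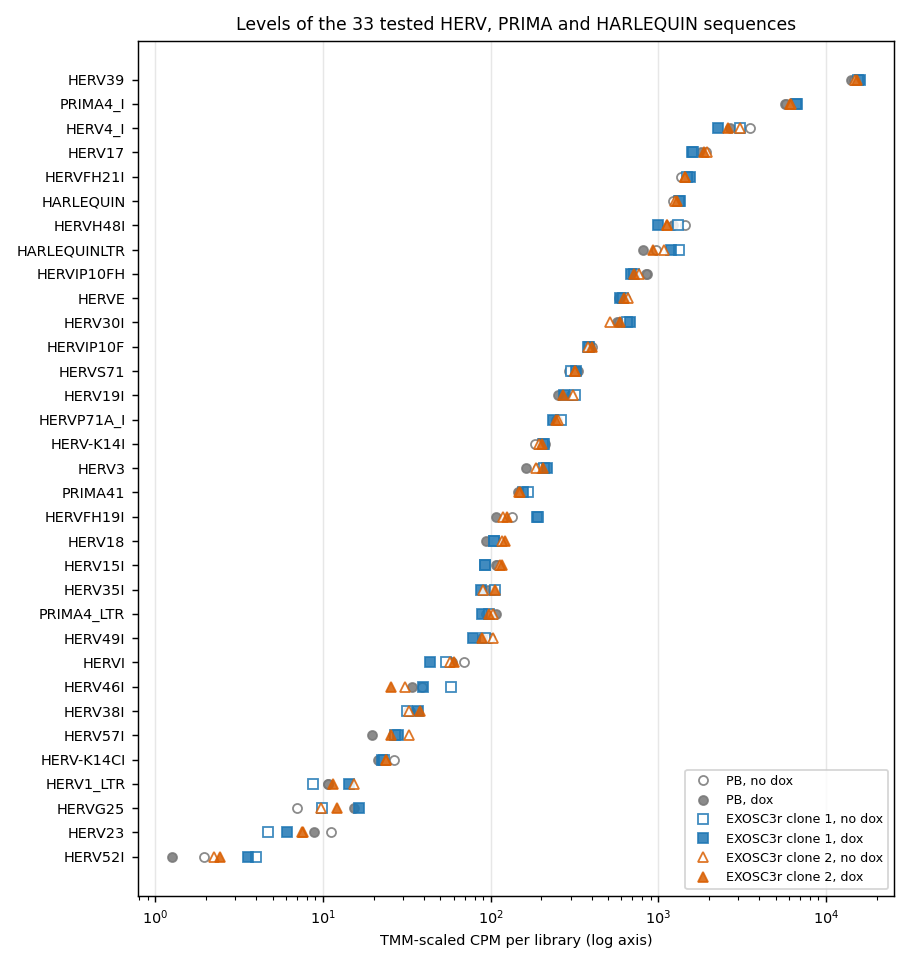
Levels of the 33 tested members, in TMM-scaled CPM on a log axis, with 1 point per library and members ordered by mean. HERV39 stands highest at 14020 to 15931 CPM, and the libraries of a member mostly lie close together beside the distance between members.

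HERV17, HERVH48I and HERV3 carry names of groups from which an envelope gene is conserved in the human genome. HERV17, also known as HERV-W, gave rise to syncytin-1 (ERVW-1), a placental protein that fuses cells. Its level was 1919 CPM in PB cells and 1783 with dox, 1617 and 1576 in clone 1, and 1938 and 1880 in clone 2. HERVH48I belongs to the group of suppressyn (ERVH48-1), a secreted protein that inhibits this fusion. It was at 1432 and 1221 CPM in PB cells, 1308 and 996 in clone 1, and 1129 and 1129 in clone 2, without and with dox. In CPM, HERV17 was a little lower with dox in each line, and HERVH48I was lower in 2 lines and level in clone 2. In TPM these directions did not hold. HERV17 went from 75.9 to 82.7 TPM in PB cells, 42.5 to 31.3 in clone 1 and 64.1 to 67.8 in clone 2. HERVH48I had 74.9 and 74.9 TPM in PB cells, 45.5 and 26.2 in clone 1, and 49.4 and 53.9 in clone 2.

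HERV3 is the group of ERV3-1, a gene on chromosome 7 with an open envelope reading frame. It was at 191 CPM in PB cells and 161 with dox, 206 and 218 in clone 1, and 187 and 206 in clone 2. The PB library with dox was the lowest of the 6. The windows around 2 annotated starts of ERV3-1 (RefSeq, GRCh38.p14, minus strand, 250 bases before to 50 after the start) are shown because this gene is a known single copy of the group with its own promoters. The first lies at chr7:65006638-65006937 and the second at chr7:64999393-64999692. The HERV3 counts are not tied to these or to any other copy. Capitals mark TATAAA, the letters of a TATA box, which were searched on both strands.
ERV3-1, first start: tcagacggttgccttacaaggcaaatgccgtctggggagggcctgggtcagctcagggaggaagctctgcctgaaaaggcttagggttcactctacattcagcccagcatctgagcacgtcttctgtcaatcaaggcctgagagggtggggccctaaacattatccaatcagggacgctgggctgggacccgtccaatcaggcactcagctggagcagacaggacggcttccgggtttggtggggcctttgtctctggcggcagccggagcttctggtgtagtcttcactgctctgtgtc
ERV3-1, second start: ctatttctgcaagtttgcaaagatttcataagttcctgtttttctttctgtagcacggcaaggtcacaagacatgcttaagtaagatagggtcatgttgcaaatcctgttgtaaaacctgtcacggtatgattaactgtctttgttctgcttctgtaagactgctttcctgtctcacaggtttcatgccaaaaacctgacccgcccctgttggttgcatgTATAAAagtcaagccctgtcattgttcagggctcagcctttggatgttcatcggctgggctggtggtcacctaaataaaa
The first window holds no TATAAA and the second holds 1. Of 35116 RefSeq promoter windows of this length, 4049 (11.5%) hold these letters on either strand. The match is a description of the letters, and whether it is a working site was not tested.

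HERVFH21I was at 1356 to 1534 CPM and HARLEQUIN, a composite class I element, at 1222 to 1344 CPM over the 6 libraries. HERVIP10FH was at 845 and 858 CPM in PB cells, 718 and 686 in clone 1, and 762 and 717 in clone 2. HERVE, a class I group, was at 578 to 661 CPM. HARLEQUINLTR was at 965 and 813 CPM in PB cells, 1318 and 1182 in clone 1, and 1079 and 929 in clone 2, without and with dox. It was lower with dox in each line, but the lines differed by more than that, so the dox and no-dox libraries overlap. Over the 33 tested members the highest library was 1.06 (HERVIP10F) to 3.14 times (HERV52I) the lowest, and 10 members exceeded 1.5 times. HERV52I had the widest ratio at a level of 1.26 to 3.96 CPM.

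Per length, the order changed. HARLEQUINLTR, a short sequence, led with a mean of 937 TPM over the 6 libraries, followed by HERV39 with 474, PRIMA4_I with 213, HERV4_I with 129 and HERVFH21I with 64.4 TPM. PRIMA4_LTR stood next at the same rounded level of 64.4 TPM, and HERV17 at 60.7 TPM, so these neighbours are not separated. For 29 members at least 1 partner LTR could be named, and each member was set beside its highest partner. The LTR was above the internal sequence in all 6 libraries for 24 of the 29. HERV39 (8.70 times LTR39 on mean TPM, 8.04 to 9.42 over libraries), HERV4_I (7.50 times LTR51, 6.86 to 9.06), PRIMA4_I (3.31 times PRIMA4_LTR, 2.87 to 4.04) and HERVFH21I (2.29 times LTR21A, 1.90 to 3.27) went the other way in every library. HERVH48I and MER48 changed order between libraries, with a ratio of 0.688 to 1.11. The 3 most abundant members were thus all among the 4 that exceeded their LTRs per length. A member's own level enters this ratio, so the overlap is partly built in, and the number of partner names differed between members. In contrast, the LTR was 10.2 times the internal level for HERV17, 13.9 times for HERVE and 17.3 times for HARLEQUIN. These ratios are not corrected for the number of genomic copies and are a description with no test.

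**Figure D2:**
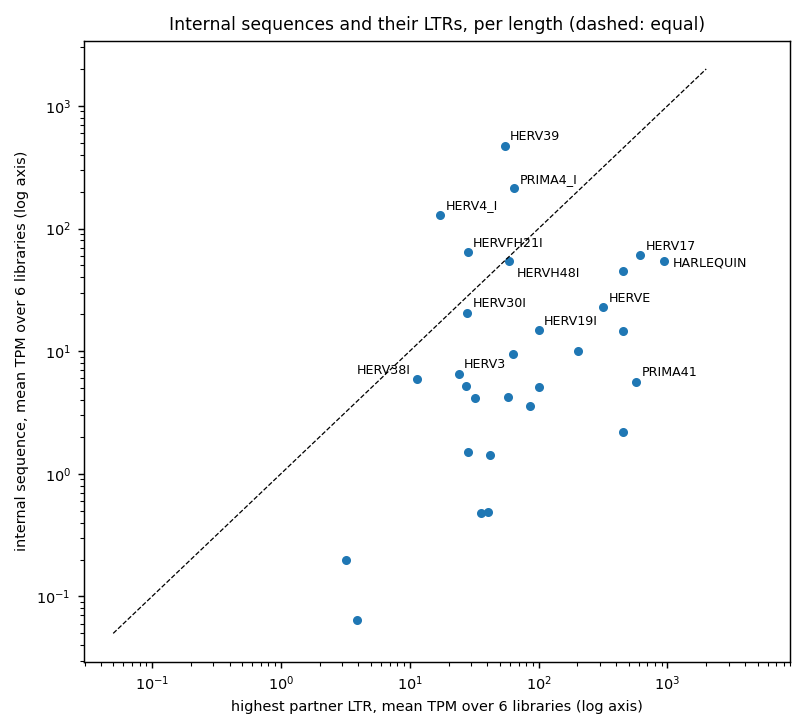
Mean TPM over 6 libraries of each internal sequence (vertical, log axis) against that of its highest partner LTR (horizontal, log axis), with a dashed line at equal levels. HERV39, HERV4_I, PRIMA4_I and HERVFH21I lie above the line, and HERVH48I lies close to it.

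The first comparison asked what induction of the hairpin did with the empty vector and with the resistant transgene. In PB cells, 0 of 33 members passed in either direction (edgeR's quasi-likelihood test, Benjamini-Hochberg adjusted p under 0.05 over the 699 sequences tested), beside 0.858% of all sequences higher and 0% lower. At an unadjusted p under 0.05, 1 member was higher and 2 were lower, beside 2.86% and 1.14% of all. The median log2 change of the members was -0.11, with 23 of 33 below 0, beside a median of 0.0037 and 48.8% below 0 over all sequences. In EXOSC3r cells 0 of 33 members passed, beside 0.143% of all higher and 0% lower, with 0 higher and 2 lower unadjusted (1.86% and 1.29% of all). The median there was -0.012, beside 0.0052 over all. DESeq2 and limma on log2 TPM also called 0 members in both comparisons.

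HERVH, given beside the members, had 0.33 ± 0.12 with dox in PB cells (adjusted p = 1.00) and -0.42 ± 0.09 in EXOSC3r cells (adjusted p = 0.39).

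HERV4_I had the lowest unadjusted p among the members in both comparisons. Its log2 change with dox was -0.39 ± 0.12 (standard error) in PB cells, with an adjusted p of 0.91 in edgeR, and -0.33 ± 0.09 in EXOSC3r cells, with an adjusted p of 0.63. HERV19I, an internal sequence of class I, changed by -0.24 ± 0.09 and -0.22 ± 0.07, with adjusted p of 1.00 and 0.90. It was at 299 and 253 CPM in PB cells, 319 and 272 in clone 1, and 311 and 268 in clone 2. As for HERV4_I, the dox libraries thus lay below all others in CPM. In TPM they overlapped, as PB cells with dox (18.3) were above clone 1 (13.1) and clone 2 (16.0) without dox. HERVG25 had an estimate of 1.12 ± 0.37 in PB cells (adjusted p = 0.92) and 0.53 ± 0.27 in EXOSC3r cells. Without the clone 1 library with dox the latter was 0.31, and limma on log2(TPM + 1) gave, relative to the median shift of all sequences, 0.27 in PB and 0.23 in EXOSC3r cells. Its counts were 35.7 and 84.5 in PB cells, 39.8 and 64.1 in clone 1, and 39.1 and 49.7 in clone 2. The dox library was above its partner in each line; these are low counts.

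Whether the responses differed between PB and EXOSC3r cells was tested as an interaction. No member passed: 0 of 33, beside 0% of all sequences in either direction, and also 0 members at an unadjusted p under 0.05, where 1.29% of all sequences were higher and 0% lower. The median difference was -0.063, beside -0.0086 over all. DESeq2 and limma called 0 members as well. For HERV4_I the response in PB cells minus that in EXOSC3r cells was -0.06 ± 0.15, with a 95% interval of -0.42 to 0.30. For HERV19I it was -0.02 ± 0.12, with an interval of -0.30 to 0.26. These intervals do not show that the responses were alike, and leave differences of about the size of the responses themselves. HERV3 had the smallest p of the members, at -0.35 ± 0.15 (unadjusted p = 0.060 in edgeR's fit, adjusted p = 1.00). Its estimate was -0.24 ± 0.12 in PB cells and 0.11 ± 0.09 in EXOSC3r cells.

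Because the responses of some members ran the same way in both kinds of cell, a fit with 1 dox term and the line as a block was added after the data were seen. It takes the PB line and each clone as a pair of libraries. It called 3 of 33 members lower and 0 higher, beside 0.858% of all sequences in each direction. At an unadjusted p under 0.05, 1 member was higher and 6 were lower, beside 5.58% and 4.72% of all. These shares of all sequences are not matched for abundance. Of the 183 tested sequences with the highest mean counts, 15 are members, the 3 called ones included. Among these 183, 6 were called lower, which is every sequence called lower, and 3 higher. Unadjusted, 15 of the 183 were lower and 16 higher. HERV4_I fell by 0.35 on the log2 scale (standard error 0.05, 95% interval -0.47 to -0.24, adjusted p = 0.0060 in edgeR). HERV19I fell by 0.23 (standard error 0.04, interval -0.32 to -0.13, adjusted p = 0.025), and HARLEQUINLTR by 0.21 (standard error 0.04, interval -0.30 to -0.11, adjusted p = 0.047). Each was lower with dox in all 3 lines. HERV4_I changed by -0.39 in PB cells, -0.43 in clone 1 and -0.23 in clone 2. The call rests on the scaling and on the lines: scaled to total counts or to ACTB and GAPDH, or without the PB line or without clone 2, 0 members passed, though the estimates of HERV4_I, HERV19I and HARLEQUINLTR stayed below 0 in every such fit. Without clone 1, 2 passed. LTR7A and LTR7B moved with these members: they fell in the same fit by 0.37 (standard error 0.07, adjusted p = 0.023 in edgeR) and 0.38 (standard error 0.04, adjusted p = 0.0014), while HERVH had -0.17 ± 0.13 (adjusted p = 0.71). Their part in the members' fall was not tested. Of the members, DESeq2 called 1, HERV4_I, and limma on log2 TPM called 0.

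**Figure D3:**
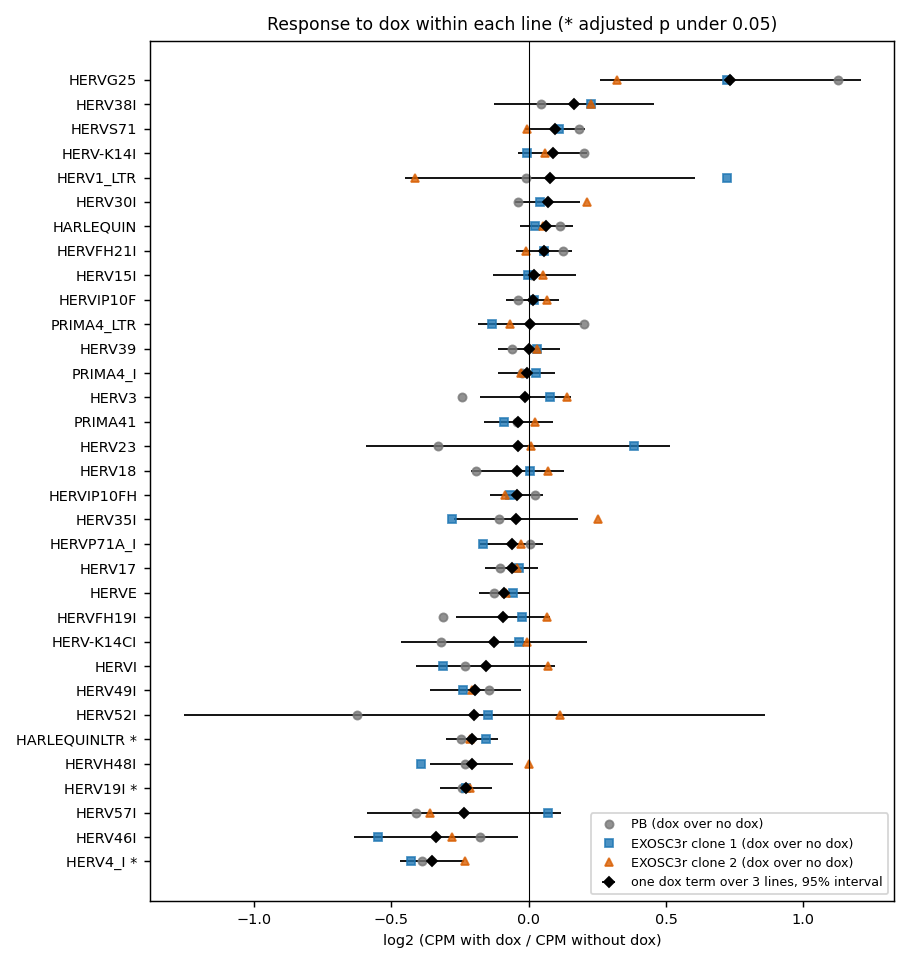
The log2 ratio of CPM with dox over CPM without dox for each tested member in the PB line and each EXOSC3r clone, with the estimate of the fit with 1 dox term as a diamond and its 95% interval as a bar. HERV4_I, HERV19I and HARLEQUINLTR, marked by an asterisk for an adjusted p under 0.05, lie at -0.35, -0.23 and -0.21, and HERVG25 lies highest at 0.73.

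**Figure D4:**
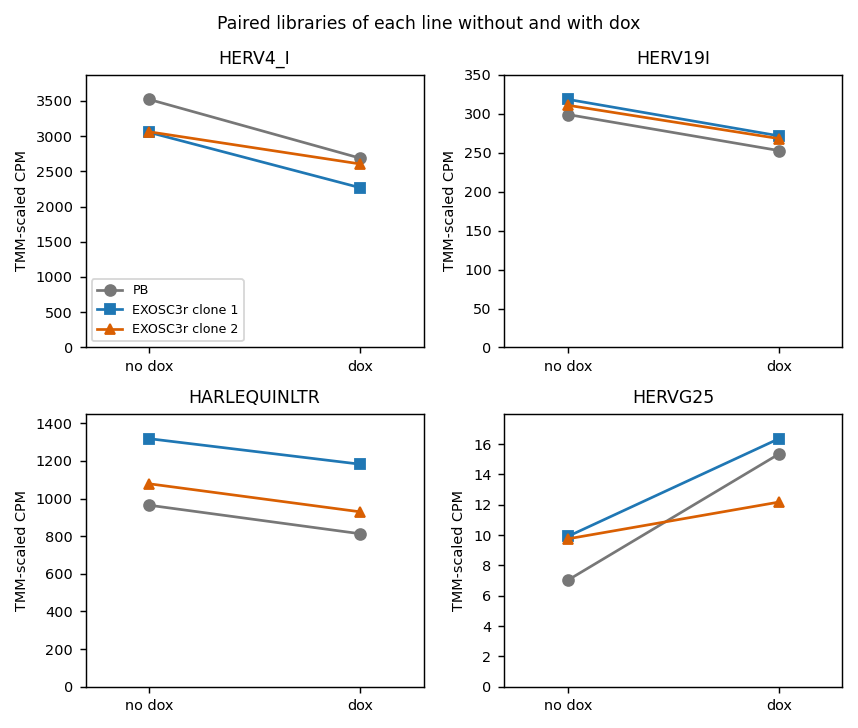
TMM-scaled CPM without and with dox, joined for the PB line and each EXOSC3r clone, for HERV4_I, HERV19I, HARLEQUINLTR and HERVG25, on axes that start at 0. The first 3 go down in each of the 3 pairs, and HERVG25 goes up in each.

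Among the other members, HERVG25 had the largest estimate in this fit at 0.73 ± 0.21 (adjusted p = 0.17), followed among those below 0 by HERV46I with -0.34 ± 0.13 (adjusted p = 0.40). HERVH48I had -0.21 ± 0.07 (adjusted p = 0.24) and HERV49I -0.19 ± 0.07 (adjusted p = 0.38). The 2 most abundant members had estimates close to 0: HERV39 0.0005 ± 0.05, with an interval of -0.11 to 0.11, and PRIMA4_I -0.01 ± 0.05. HERV17 had -0.06 ± 0.04. The members were not tested against each other.

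By direction alone in TMM-scaled CPM, 9 of 33 members were lower with dox in all 3 lines, beside 15.9% of all 699 sequences. They were HERV4_I, HERV17, HERVH48I, HARLEQUINLTR, HERVE, HERV19I, HERV49I, HERV46I and HERV-K14CI, with HERVH48I in clone 2 lower by less than 1 CPM. HARLEQUIN, HERV38I and HERVG25 were higher in all 3 lines (3 of 33, beside 16.6% of all), and 21 went different ways. In TPM, HERV4_I, HERV19I, HARLEQUINLTR and HERVG25 kept their direction in all 3 lines. The other members named here did not. HERVE, for example, rose in PB cells from 27.6 to 29.7 TPM, and HARLEQUIN fell in clone 1 from 43.7 to 33.6 TPM. Stricter still, 3 members (HERV4_I, HERV19I and HERV49I) had all dox libraries below all others in CPM, beside 5.72% of all sequences. HERV38I and HERVG25 had them all above, beside 7.87%. For HERV4_I and HERV19I this separation did not hold in TPM, as given above, and it also failed for HERV49I and HERV38I. HERV49I had 5.68 TPM in PB cells with dox, above clone 1 (3.35) and clone 2 (4.66) without dox. HERV38I had 3.82 TPM in clone 1 with dox, below its 4.32 without. For HERVG25 it held narrowly, with 0.403 TPM in clone 1 with dox beside 0.401 in clone 2 without. HARLEQUIN and its LTR went opposite ways: the internal sequence had 0.06 ± 0.04 (adjusted p = 0.65) where HARLEQUINLTR fell. This difference was not tested. The 3 tested class III members had estimates of -0.62 to -0.19 in PB cells, none past the threshold, and of -0.15 to 0.04 in EXOSC3r cells, with 1 of 3 above 0, and they are among the less abundant sequences.

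LTRs that flank the members were read from the same fits. Of 67 partner names, 57 were tested, and 0 passed in any of the 5 planned comparisons. In the fit with 1 dox term, HARLEQUINLTR, itself a member, was the only one of the 57 that passed. LTR51, the partner of HERV4_I, had -0.14 ± 0.14 (adjusted p = 0.80) and LTR19A, a partner of HERV19I by number, -0.11 ± 0.06 (adjusted p = 0.59), beside -0.35 and -0.23 for the internal sequences. The other LTR19 names were mixed, with -0.11 ± 0.16 for LTR19B and 0.07 ± 0.11 for LTR19C. LTR25, the partner of HERVG25, had 0.18 ± 0.08 (adjusted p = 0.52). The median over the partners was 0.011 in PB cells and 0.020 in the fit with 1 dox term, beside -0.11 and -0.041 for the members.

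The last comparisons set EXOSC3r cells beside PB cells, under dox and without it. HERVH itself was lower in EXOSC3r cells under dox, with a log2 difference of -0.78 ± 0.10 (adjusted p = 0.035 in edgeR), beside -0.03 ± 0.10 without dox, and its part in the members' values was not tested. Under dox 0 of 33 members passed, beside 1% of all sequences lower and 0% higher. At an unadjusted p under 0.05, 1 member was higher and 1 lower, beside 4.43% and 3.15% of all. The median was 0.0076, beside 0.0058 over all. Without dox 0 members passed (0% of all in either direction), and 0 did so unadjusted, where 1% of all were higher and 1.29% lower, and the median was 0.061, beside 0.011 over all. DESeq2 and limma called 0 members in both. These comparisons and the dox responses share libraries, so their values are given side by side and are not independent.

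HERV3 was the member higher in EXOSC3r cells under dox at an unadjusted p of 0.010, by 0.39 ± 0.11 (interval 0.13 to 0.65, adjusted p = 0.61 in edgeR). Without dox its difference was 0.04 ± 0.11. HERVIP10FH was the member lower under dox, with a difference of -0.29 ± 0.08 (interval -0.49 to -0.09, adjusted p = 0.61), and it had -0.19 ± 0.08 without dox (adjusted p = 0.97). The difference of HERV3 was thus larger with dox as estimated, and the interaction given above tests that contrast. That of HERVIP10FH ran the same way in both arms. LTR17, the partner of HERV17, had 0.38 ± 0.16 under dox (adjusted p = 0.61), and LTR4, the partner of HERV3, 0.14 ± 0.27. Of the LTR10 names beside HERVIP10FH, LTR10E had 0.30 ± 0.12 and LTR10B1 0.35 ± 0.14 under dox (adjusted p = 0.61 for both in edgeR), above 0 where HERVIP10FH was below it. LTR10C, the most abundant of them per length, had -0.13 ± 0.08. LTR10G (-0.20), LTR10B (-0.15) and LTR10B2 (-0.11) were also below 0. LTR10A (0.01), LTR10F (0.04) and LTR10D (0.10) were above it, so the LTR10 names were mixed.

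**Figure D5:**
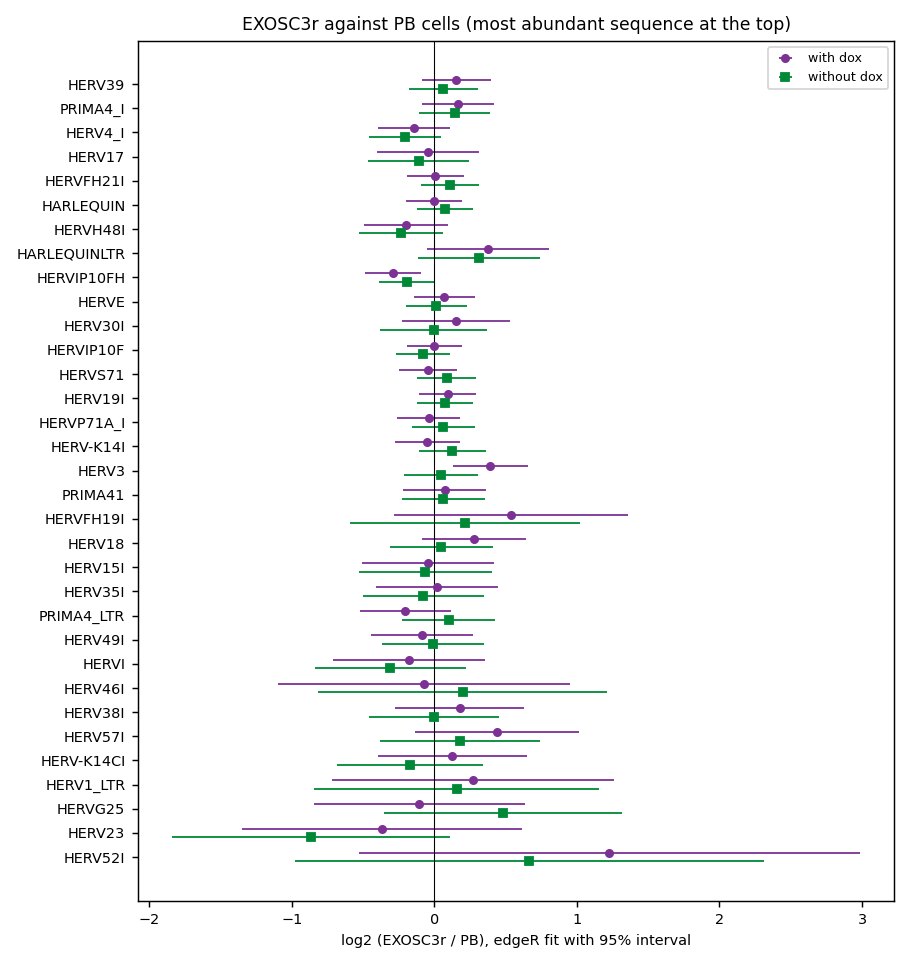
The log2 difference of EXOSC3r from PB cells of each tested member, under dox and without dox, with bars for the 95% interval. HERV3 lies at 0.39 under dox and 0.04 without, and HERVIP10FH lies below 0 in both.

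By level in TMM-scaled CPM, HERVIP10FH and HERV23 were the 2 members with both PB libraries above all 4 EXOSC3r libraries, beside 10% of all sequences. HERV39, PRIMA4_I and HERV52I had both below, beside 11.6%, and the other 28 overlapped. In TPM the order of HERV39 and PRIMA4_I was the reverse, as given above. HERV39 was 0.15 ± 0.10 higher under dox and 0.06 ± 0.10 without as estimated, and PRIMA4_I 0.17 ± 0.10 and 0.14 ± 0.10, and the 95% intervals of these estimates include 0. Under dox, PRIMA4_I had 0.098 without the clone 1 library, and limma on log2(TPM + 1), relative to the median shift, gave 0.069 for HERV39 and 0.082 for PRIMA4_I. Not taken relative to that shift, the lowest estimates under dox over the alternatives were -0.64 for HERV39 and -0.63 for PRIMA4_I. Without dox, HERV39 had 0.10 without clone 2. With 1 PB line, a difference between lines and an effect of the transgene cannot be told apart.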

How the data were processed

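The submitters' processing notes name the tools Salmon 0.13.0, Trimmomatic 0.36 and bcl2fastq 2.17, and per the labels' protocols rRNA was removed and stranded libraries were prepared. The index and options are not given in the sources used here. Per the file headers, the deposited tables give TPM, an estimated count and lengths for 1047 sequences. The deposited TPM values are scaled to 1 total over these sequences alone. Estimated counts were rounded, and sequences with at least 10 counts in at least 1 library were kept (699). edgeR 4.0.16 (R 4.3.3) was run with TMM scaling on 4 group means, with 2 residual degrees of freedom from the clones and a biological coefficient of variation of 12.2%. The fit gives the unreplicated PB arms the spread of the clones. The standard error is the log2 change over the root of the F statistic, and intervals are 95%. P-values of the fit on 4 group means measure the spread between clones, which may be technical. In the fit with 1 dox term the line block takes up the differences between lines. Its p-values measure how far the dox responses of the PB line and the 2 clones differ from each other. The code was tested on simulated counts.

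Members and lists were chosen with earlier results of these data known. Any member could be named; full values are given for the most abundant ones, those that passed and those with the smallest p. The libraries of a clone come from 1 cell line, so clone numbers pair them; deviations of clone 1 with and without dox correlated at 0.15 over 699 sequences, 0.60 over the 253 with at least 100 CPM and 0.57 over 33 members, none of which are independent. The alternatives were DESeq2 1.42.0, its size factors, total counts, other filters, limma 3.58.1 on log2 TPM with pseudocounts of 1 and 0.1, the line as a block and leaving out libraries. Scaling to ACTB and GAPDH, summed families and the fit with 1 dox term were added after seeing the data.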

Additional observations from a re-analysis of the deposited data

How the results depend on the processing

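In the 5 planned comparisons 0 members passed under every alternative run, the line as a replicate block included, which changed no call of a member. That block was not run between EXOSC3r and PB cells, since it is the line that differs there. In the fit with 1 dox term, chosen after seeing the data, 3 members passed; 0 did with total counts, with scaling to ACTB and GAPDH, with limma on log2 TPM at a pseudocount of 1 or 0.1, without the PB line and without clone 2, and 1 did with DESeq2. The cause was not tested, apart from the fewer libraries where a line is left out. HERV4_I was below 0 in each of these fits, at -0.41 to -0.31, with an adjusted p of 0.096 without the PB line, 0.067 without clone 2 and 0.65 with total counts. Leaving out 1 EXOSC3r library at a time moved the difference of responses (PB minus EXOSC3r) of HERV4_I between -0.17 and 0.042 (0.042 without clone 2 with dox) and that of HARLEQUINLTR between -0.23 and 0.11 (0.07 without clone 2 without dox, 0.11 without clone 1 with dox). Other scalings moved the median of all sequences by -0.78 to 0.36, and values are relative to it. Not taken relative to it, the lowest estimates for EXOSC3r minus PB under dox fell below 0. They were -0.64 for HERV39, -0.63 for PRIMA4_I and -0.40 for HERV3, so the direction of these differences depends on the scaling. Depth limits the members with few counts, such as HERV52I and HERV23, whose intervals are wide.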
